A study of Mus musculus with 68 samples.

Results

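The comparison set alveolar septa against vessels, both cut by laser microdissection from lungs of wild-type mice kept in room air, at the 3-month time point. Its members are the arrays titled wild-type room air, 5 of septa and 5 of vessel, and they make up 10 of the 68 arrays of the series. The comparison addresses compartment identity in lung that received no treatment. RNA was amplified, labelled with Cy3 and hybridised to 1-colour Agilent arrays. Values are log2 intensities, and each gene was read on its brightest probe over all 68 arrays. Differences are septa minus vessel.

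The other 58 arrays hold the same pair of compartments in 6 further conditions. At 3 months these were wild type with cigarette smoke and Fgf10 knock-down with room air or smoke, where the shared treatment text names Fgf10+/- and Fgfr2b+/- animals. At 8 months they were controls in room air, controls in smoke and Fgf10 overexpression in smoke, and the same text adds treatment of 1 week with or without doxycycline. The characteristics of 1 septa array titled wild-type smoke say knock-down, and it was grouped by title. All groups hold 5 arrays, except knock-down room air with 4 in each compartment. The labels give no strain, age or sex. The shared growth text speaks of smoke for every array, and the treatment label of each array was used here. The series calls the replicates biological, but whether a septa array and a vessel array share an animal is not stated. The p-values measure the spread between these arrays, and the number of arrays limits their precision.

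The septum is the thin wall between air spaces. It holds flat type 1 and surfactant-making type 2 epithelial cells, a dense capillary net, fibroblasts and immune cells. A pulmonary vessel wall has a lining endothelium, a coat of smooth muscle and an outer adventitia of fibroblasts and matrix. In mice, cardiac muscle reaches along the pulmonary veins into the lung, and airways run beside the arteries.

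The largest difference was that of Actc1, a muscle actin, and 11 of 19 tested smooth muscle genes were lower in septa, against 0.989% of all genes tested. The promoters of 4 muscle genes found lower in septa are shown here, because many such genes are known targets of serum response factor, a transcription factor that binds the CArG box. Each line is the stretch of 250 bases before the RefSeq gene start (build GRCm38.p6), 5′ to 3′ on the gene's strand, with a CArG box in capitals. The positions are chr2:114052876-114053125 on the minus strand for Actc1, chr8:123894776-123895025 on the minus strand for Acta1, chr2:156775214-156775463 on the plus strand for Myl9 and chr9:22099003-22099252 on the plus strand for Cnn1.
Actc1: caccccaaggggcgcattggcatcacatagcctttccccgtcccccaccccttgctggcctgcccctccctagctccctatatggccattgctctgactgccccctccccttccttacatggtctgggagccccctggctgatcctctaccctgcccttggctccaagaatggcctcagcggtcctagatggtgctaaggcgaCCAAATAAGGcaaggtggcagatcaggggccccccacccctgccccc
Acta1: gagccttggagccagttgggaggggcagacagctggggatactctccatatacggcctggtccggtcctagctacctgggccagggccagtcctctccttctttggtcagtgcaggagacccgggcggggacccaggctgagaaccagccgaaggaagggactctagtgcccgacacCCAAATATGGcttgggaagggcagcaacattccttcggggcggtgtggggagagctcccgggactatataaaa
Myl9: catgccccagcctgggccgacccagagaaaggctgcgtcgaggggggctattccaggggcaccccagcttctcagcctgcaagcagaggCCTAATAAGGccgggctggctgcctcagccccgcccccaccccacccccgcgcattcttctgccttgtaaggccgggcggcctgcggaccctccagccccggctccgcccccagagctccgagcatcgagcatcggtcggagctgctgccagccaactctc
Cnn1: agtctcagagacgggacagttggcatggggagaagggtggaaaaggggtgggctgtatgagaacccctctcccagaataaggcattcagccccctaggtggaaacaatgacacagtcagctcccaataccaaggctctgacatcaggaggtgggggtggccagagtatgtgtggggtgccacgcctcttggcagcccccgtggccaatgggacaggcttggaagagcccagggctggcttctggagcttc
The box begins at position -47 from the start in Actc1, at -73 in Acta1 and at -161 in Myl9, and the strict form of it searched here has no match in the Cnn1 window. The search pattern is the same on both strands, so either strand gives the same matches. The search covered 300 bases per window, from 250 before to 50 after the start. Of the genes found lower in septa below, 118 had a window, and 8 of these (6.78%) held a box: Actc1, Acta1, Myl9, Ldb3, Asb2, Fbxl22, Lmcd1 and Myom1. Of the genes higher in septa, 267 had a window and 5 (1.87%) held one. Over all genes tested the figure was 231 of 13453 (1.72%), and over every window held by RefSeq here 535 of 32851 (1.63%). A match is a run of letters and not a shown binding site.

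Tests took in genes brighter than percentile 40 of an array (5.32 on the log2 scale) on 5 or more of the 10 arrays, and a value below that level is called dim here. Of 16992 genes tested, limma found 507 (2.98%) different between septa and vessel at an adjusted p under 0.05. Of these, 339 were higher in septa (2.0% of those tested) and 168 lower (0.989%). The median difference over all tested genes was 0.15. With each array centred on its median that figure was 0.01, and 265 genes were then higher and 203 lower. In the plot of all genes tested the called genes lie beyond a difference of 1.58 in either direction. The 5 smallest adjusted p-values were those of Cnn1, Actc1, Ccn3 and Actg2, lower in septa, and of Fam111a, higher. The largest differences are those of Actc1, at -7.80 ± 0.64, and Bex2, at 6.77 ± 1.13 (SE, n = 5 each; limma adjusted p = 0.000277 and 0.0122). The count of calls was 248, 151, 265, 139 and 162 with septa replicate 1, 2, 3, 4 or 5 left out, and 405 to 717 with a vessel array left out.

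**Figure D1:**
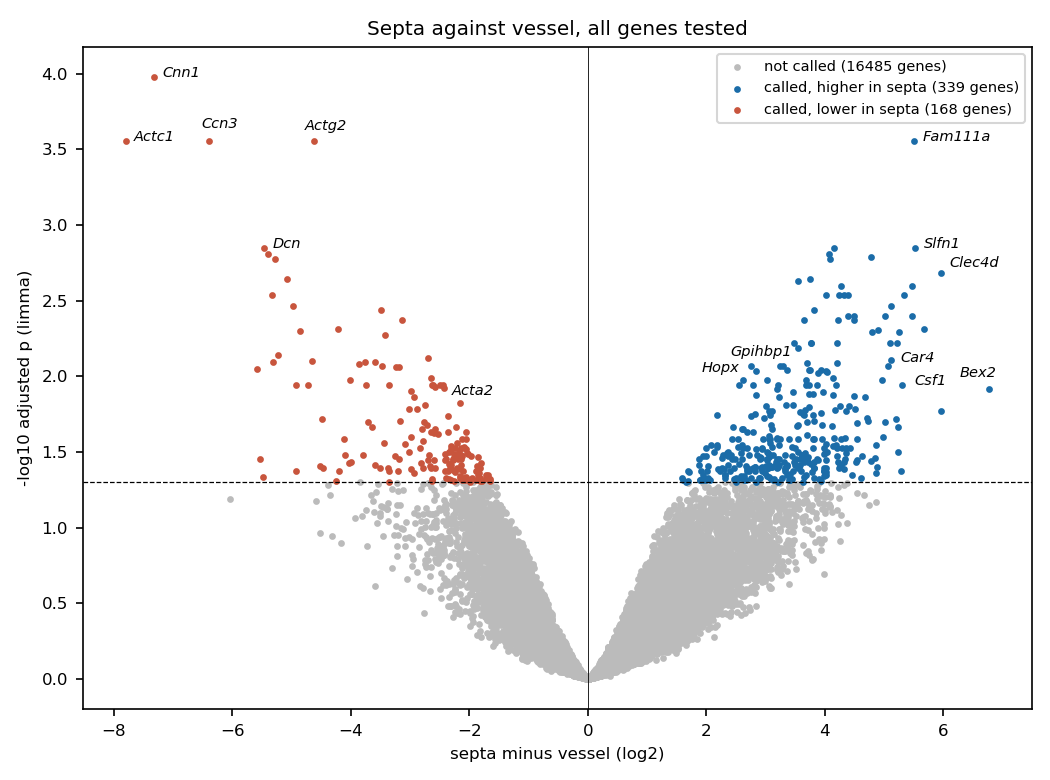
Difference of septa minus vessel on the log2 scale (x axis) against -log10 of the limma adjusted p (y axis) for 16992 genes; each point is a gene, and the dashed line is an adjusted p of 0.05. The 339 genes called higher in septa lie to the right and the 168 called lower to the left, with Cnn1, Actc1, Ccn3 and Actg2 at the top left and Fam111a at the top right.

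The vessel arrays of this condition stood apart. Across genes, vessel arrays correlated with each other at a median r of 0.65 (0.60 to 0.69 over 10 pairs), against 0.84 in septa (0.78 to 0.92). Vessel arrays resembled septa arrays as closely, at a median of 0.66 over 25 pairs. In the 6 other vessel groups the median within a group lay between 0.69 and 0.88. The median SD of a gene was 0.81 in septa and 1.27 in vessel. Of the 339 genes higher in septa, 290 (85.5%) had their wild-type room air vessel mean below those of all 6 other vessel groups, against 23.4% of all genes tested. Of the 168 genes lower in septa, 115 (68.5%) had their vessel mean above the other groups, against 16.0% of all tested. The calls were made on these same arrays, so the shares are a description, and their part in the calls was not tested. Xist, which marks female cells, was high on septa replicates 1 and 2 and on vessel replicates 1 and 5, and the labels give no sex.

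Smooth muscle genes made up the list with most calls. Of 19 tested members of a vascular smooth muscle list, 11 were lower in septa, 0 were higher, 3 had a positive difference, and the median difference was -2.98. The mean level of the list was 9.10 to 9.55 on septa arrays and 11.22 to 11.94 on vessel arrays. In bulk tissue, fewer cells of a type and less RNA per cell cannot be told apart, here or in the lists below. Over all genes tested, 2.0% were called higher and 0.989% lower, the shares to set beside the list counts below. A single call in a list is not read as a result about that list.

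Cnn1, calponin, a regulator of actin and myosin in smooth muscle, read 7.94, 7.19, 5.99, 7.76 and 6.57 on the septa arrays, against 14.36, 14.77, 14.62, 14.48 and 13.79 on the vessel arrays. Every vessel array lay more than 5 log2 units above the highest septa array. The means were 7.09 ± 0.82 in septa and 14.40 ± 0.38 in vessel (SD, n = 5 each), a difference of -7.31 ± 0.49 (SE; limma adjusted p = 0.000105), or 159-fold lower in septa. Myh11, the smooth muscle myosin heavy chain, read 10.60, 9.51, 8.57, 11.21 and 10.98 in septa, against 14.13, 13.71, 14.77, 14.96 and 14.37 in vessel. The groups did not overlap, and septa varied more, with replicate 3 lowest. Its difference was -4.21 ± 0.57 (SE, n = 5 each; limma adjusted p = 0.00489). Acta2, the smooth muscle actin, read 13.30, 13.09, 12.90, 13.23 and 13.47 in septa, against 15.29, 14.96, 15.54, 15.53 and 15.45 in vessel. It was bright in both compartments and tight within each, and the smaller difference of -2.16 ± 0.37 still passed (SE, n = 5 each; limma adjusted p = 0.015). Its vessel arrays lay near 15.98, the highest value deposited, so the exact size of this difference is uncertain. Tagln, an actin-bundling protein of smooth muscle, differed by -3.13 ± 0.42 and Actg2, the enteric smooth muscle actin, by -4.63 ± 0.39 (SE, n = 5 each; limma adjusted p = 0.00423 and 0.000277).

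Myl9, the regulatory light chain of smooth muscle myosin, differed by -4.86 ± 0.67, and Tpm2, a tropomyosin along the actin filament, by -3.86 ± 0.58 (SE, n = 5 each; limma adjusted p = 0.00499 and 0.00822). Mustn1 differed by -5.27 ± 0.58 and Sncg, gamma synuclein, by -3.49 ± 0.45 (SE, n = 5 each; limma adjusted p = 0.00166 and 0.00364). Both groups kept clear of each other in all 4 of these genes. Des, desmin of the intermediate filaments, read 8.07, 10.40, 8.05, 10.58 and 11.31 in septa, against 12.95, 12.58, 12.80, 12.10 and 12.90 in vessel. Its septa arrays spread over more than 3 units and the call was weaker, at -2.98 ± 0.68 (SE, n = 5 each; limma adjusted p = 0.0412, and up to 0.0844 with 1 array left out). Kcnmb1, the beta subunit of the calcium-activated potassium channel of smooth muscle, read 4.12, 4.74, 4.55, 5.58 and 4.53 in septa, against 10.76, 5.16, 11.52, 8.61 and 12.08 in vessel. Vessel replicate 2 lay among the septa arrays. Its difference was -4.92 ± 1.13 (SE, n = 5 each; limma adjusted p = 0.0421), and with 1 array left out it missed the threshold in 9 of 10 fits (limma adjusted p up to 0.103).

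The other 8 tested members did not pass. Smtn, smoothelin, was at -2.30 ± 0.59, just short of the threshold (SE, n = 5 each; limma adjusted p = 0.0589), and Mylk, the myosin light chain kinase, at -1.05 ± 0.79. Tpm1 and Cald1, caldesmon, were at 0.53 ± 0.54 and 0.44 ± 0.83, and the integrin Itga8 at 1.95 ± 0.59 (SE, n = 5 each). Tpm1, Cald1 and Itga8 were the 3 members with a positive difference, and the reason for their sign was not tested. With 1 array left out, 9 or 10 members of the list passed, against 11 with all arrays. Pericyte genes, those of the contractile cells on capillaries, gave no call among 15 tested (limma), with a median of 0.71. Among ion channels of contraction Kcnmb1 was the 1 call of 22 tested, against 2.98% of all genes tested in either direction.

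**Figure D2:**
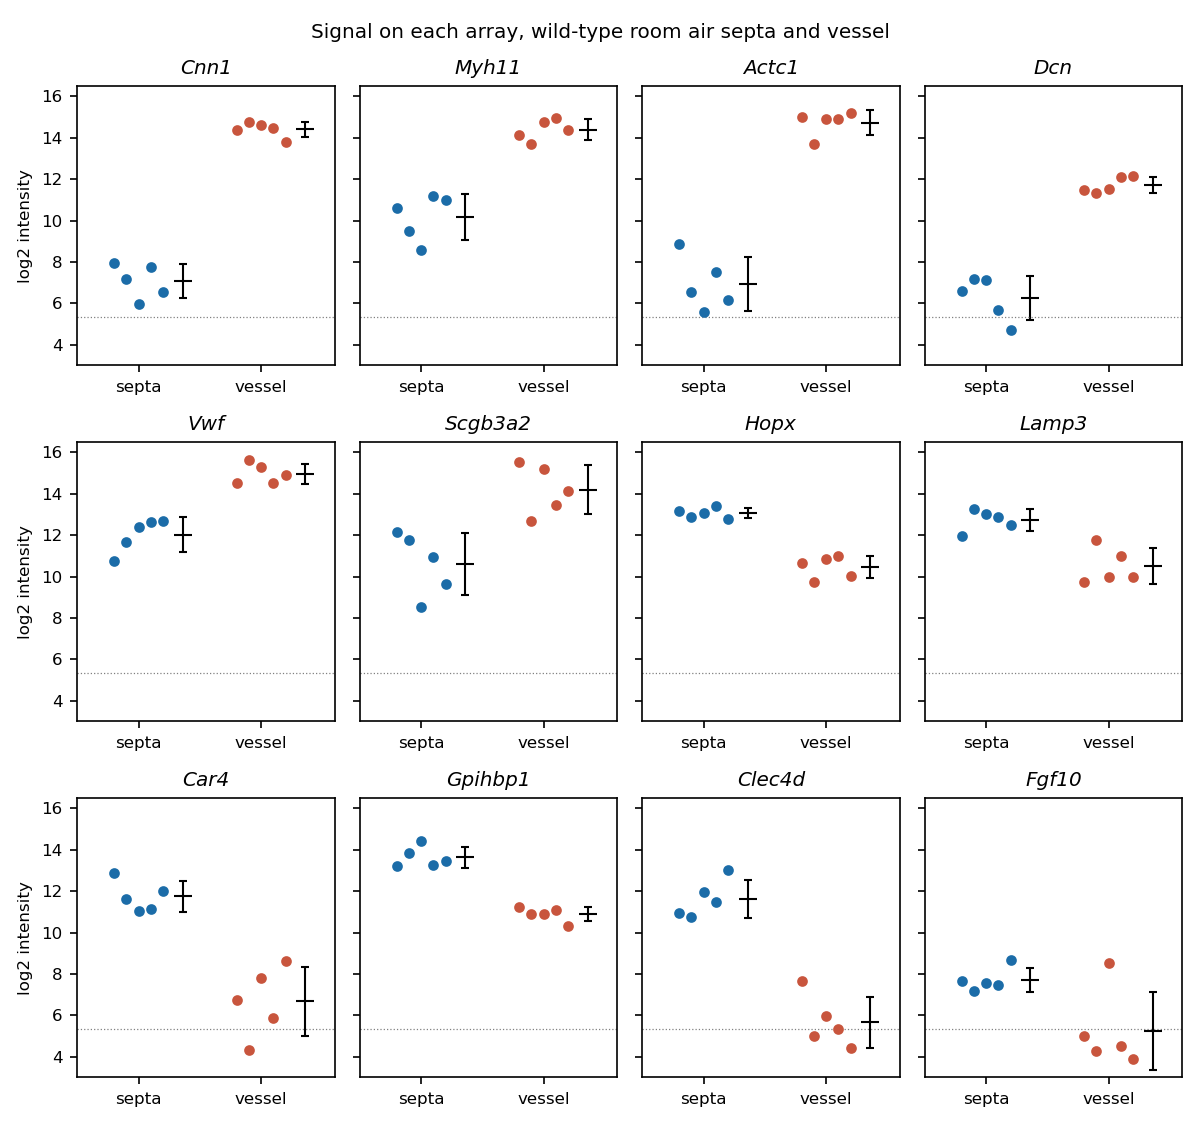
Log2 intensity on each array (y axis) for 12 genes in septa (left, blue) and vessel (right, red); points are arrays, black marks are means with SD (n = 5) and the dotted line is the mean of the arrays' percentile 40. Cnn1, Myh11, Actc1, Dcn and Vwf are lower on every septa array than on any vessel array, and Hopx, Car4, Gpihbp1 and Clec4d are higher, while vessel replicate 3 of Fgf10 lies among the septa arrays.

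A few genes of striated muscle were lower in septa. Actc1, the alpha actin of cardiac muscle, read 8.87, 6.57, 5.58, 7.53 and 6.14 in septa, against 14.99, 13.69, 14.91, 14.90 and 15.18 in vessel. It was high on all 5 vessel arrays. Acta1, the alpha actin of skeletal muscle, read 7.68, 4.90, 6.94, 5.84 and 5.17 in septa, against 11.17, 11.73, 11.64, 11.72 and 11.27 in vessel, a difference of -5.40 ± 0.57 (SE, n = 5 each; limma adjusted p = 0.00155). Actins are close relatives and probes for one may take up signal from another, so the identity of each actin is uncertain. Acta1 was the 1 call of 11 tested skeletal muscle genes.

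The cardiac genes proper varied widely among the vessel arrays. Myl7, the atrial myosin light chain, read 5.01, 5.93, 4.39, 4.80 and 4.49 in septa, against 10.33, 10.91, 5.42, 13.91 and 5.66 in vessel. Vessel replicate 4 was highest and replicates 3 and 5 lay near the septa arrays. Its difference of -4.32 ± 1.42 did not pass (SE, n = 5 each; limma adjusted p = 0.113). Myh6, the atrial myosin heavy chain, read 6.48, 5.07, 4.51, 5.30 and 5.46 in septa, against 12.14, 6.92, 7.49, 15.45 and 7.44 in vessel. Every vessel array was above every septa array, yet the spread in vessel left it at -4.53 ± 1.47 (SE, n = 5 each; limma adjusted p = 0.109). Tnnt2, cardiac troponin T, read 3.90, 4.58, 6.81, 4.14 and 4.40 in septa, against 8.55, 4.75, 9.38, 13.74 and 4.05 in vessel, and was too dim on most arrays to be tested.

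Ldb3, a protein of the Z disc of striated muscle, read 4.34, 4.32, 4.09, 5.58 and 4.19 in septa, against 9.93, 4.58, 11.85, 13.15 and 10.43 in vessel. Vessel replicate 2 did not rise above the septa arrays, and the difference was -5.48 ± 1.29 (SE, n = 5 each; limma adjusted p = 0.0465), which passed in 1 of 10 fits with 1 array left out (limma adjusted p up to 0.111). Tnnc1, troponin C of slow and cardiac muscle, was at -3.50 ± 0.79 (SE, n = 5 each; limma adjusted p = 0.0405), and passed in 3 of 10 fits with 1 array left out. Of 16 tested members of the pulmonary vein cardiomyocyte list, Actc1 and Tnnc1 were lower and 0 higher, with a median of -1.59. The mean level of the list ran from 6.15 to 6.75 in septa, against 8.37, 6.08, 7.28, 10.22 and 6.86 on vessel replicates 1 to 5. How much of each cut was vein was not tested. Without vessel replicate 4, the highest for this list, 2 genes of it were still lower, and without vessel replicate 2 or 5, or without any 1 septa array, 1 gene was.

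**Figure D3:**
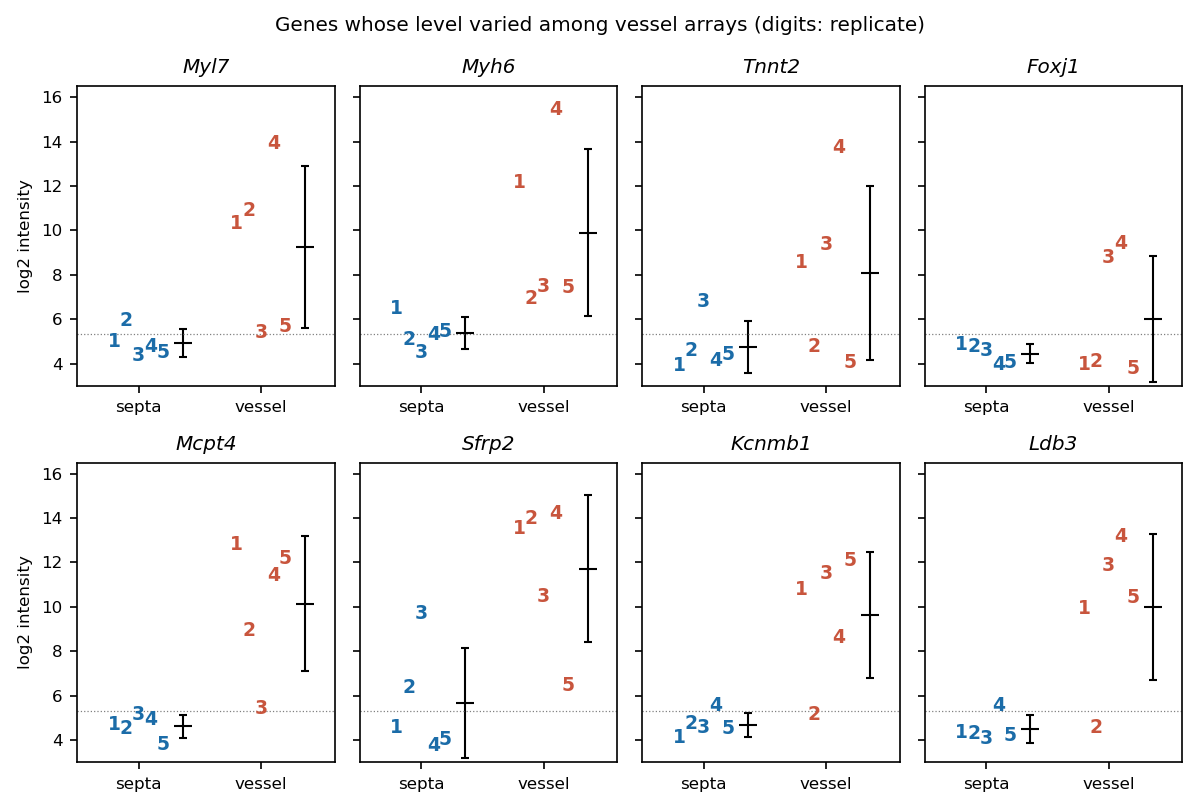
Log2 intensity (y axis) on septa arrays (left, blue) and vessel arrays (right, red) for 8 genes that varied among vessel arrays; digits give the replicate, black marks are means with SD (n = 5) and the dotted line is the mean of the arrays' percentile 40. Vessel replicate 4 is highest for Myl7, Myh6 and Tnnt2, only vessel replicates 3 and 4 are above 8 for Foxj1, and vessel replicate 2 lies with the septa arrays for Kcnmb1 and Ldb3.

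Some adventitial genes were lower in septa. Of 18 tested members of an adventitial fibroblast list, 3 were lower and 0 higher, 15 had a negative difference, and the median was -2.04. In 4 of them the groups did not overlap with septa lower (3.4% of all genes tested did so). Dcn, the collagen-binding proteoglycan decorin, read 6.58, 7.19, 7.14, 5.70 and 4.69 in septa, against 11.47, 11.35, 11.53, 12.11 and 12.14 in vessel. The vessel arrays lay within 1 unit of each other, and all septa arrays were lower by 4 or more. The difference was -5.46 ± 0.55 (SE, n = 5 each; limma adjusted p = 0.00142). Pi16, a peptidase inhibitor that marks adventitial fibroblasts, differed by -2.31 ± 0.51 and Igfbp4, which binds insulin-like growth factors, by -2.72 ± 0.51 (SE, n = 5 each; limma adjusted p = 0.0384 and 0.021). Sfrp2, a secreted Wnt modulator, read 4.59, 6.38, 9.72, 3.74 and 4.02 in septa, against 13.53, 13.99, 10.46, 14.20 and 6.44 in vessel. Septa replicate 3 was above vessel replicate 5, and the difference of -6.03 ± 1.58 did not pass (SE, n = 5 each; limma adjusted p = 0.0642). With 1 array left out, 2 to 5 members passed, and the 5 came without septa replicate 3. Dcn was also the 1 call of 22 tested proteoglycan and matricellular genes.

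Eln, elastin of the elastic laminae, read 9.98, 11.14, 8.17, 10.91 and 11.97 in septa, against 12.77, 12.84, 13.65, 15.15 and 13.73 in vessel. The groups did not overlap, and the difference was -3.20 ± 0.74 (SE, n = 5 each; limma adjusted p = 0.0425, and up to 0.097 with 1 array left out). It was the 1 call of 16 tested elastic fibre genes and of 16 tested arterial endothelium genes, a list that holds it too. No collagen gene passed among 17 tested (limma), with a median of -0.11. Ccn3, a matricellular protein, read 5.94, 4.79, 5.30, 4.93 and 4.83 in septa, against 11.38, 11.78, 11.45, 12.90 and 10.21 in vessel. The highest septa array was more than 4 units below the lowest vessel array. The difference was -6.39 ± 0.53 (SE, n = 5 each; limma adjusted p = 0.000277). The 10 largest decreases in septa also held Olfml2b at -5.58 ± 0.86, Rbpms2, an RNA-binding protein of smooth muscle, at -5.32 ± 0.66, and Hpse2, a relative of heparanase, at -5.31 ± 0.79 (SE, n = 5 each; limma adjusted p from 0.0029 to 0.00891).

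Alveolar fibroblast and lipofibroblast genes ran the other way without a call. Of 18 tested, 17 had a positive difference and the median was 1.05, and 0 passed (limma). Itga8, above, is also on that list. Lama3, a laminin chain of epithelial basement membrane, was the 1 call of 22 tested integrin and laminin genes (2.98% of all genes tested were called). It read 11.90, 10.46, 10.94, 9.97 and 7.60 in septa, against 4.79, 5.19, 3.97, 5.04 and 5.83 in vessel, where every array was near the dim end of the scale. The difference was 5.21 ± 0.74 (SE, n = 5 each; limma adjusted p = 0.00602).

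Some capillary genes were higher in septa. Of 15 tested genes of aerocytes, the capillary cells that face the air space, 3 were higher, 0 lower, and the median was 2.27. Of 19 tested genes of general capillary cells, 2 were higher, 0 lower, and the median was 1.36. Of all genes tested, 2.0% were called higher. Car4, a carbonic anhydrase on the surface of aerocytes, read 12.89, 11.64, 11.04, 11.14 and 12.001 in septa, against 6.74, 4.34, 7.78, 5.86 and 8.65 in vessel. No vessel array came within 2 units of the septa arrays. The difference was 5.07 ± 0.77 (SE, n = 5 each; limma adjusted p = 0.00851). Car4 is also made by alveolar macrophages, where it was the 1 call of 17 tested genes. Gpihbp1, which holds lipoprotein lipase on capillary endothelium, read 13.19, 13.84, 14.43, 13.25 and 13.46 in septa, against 11.22, 10.88, 10.91, 11.07 and 10.32 in vessel. Both groups were tight and apart. Its difference was 2.76 ± 0.42 (SE, n = 5 each; limma adjusted p = 0.00859).

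Calcrl, the receptor for adrenomedullin, differed by 2.26 ± 0.48 (SE, n = 5 each; limma adjusted p = 0.0349). Tbx2, a T-box factor, differed by 2.19 ± 0.50 and Cyp4b1, a cytochrome P450, by 1.99 ± 0.48 (SE, n = 5 each; limma adjusted p = 0.0409 and 0.0485). The endothelin receptor Ednrb, known from aerocytes, was at 2.92 ± 0.75 and did not pass (SE, n = 5 each; limma adjusted p = 0.0603). The aerocyte list had 1 call without septa replicate 1, 2, 4 or 5 and 2 or 3 without any other 1 array. The general capillary list had 1 without septa replicate 1, 2, 4 or 5 or vessel replicate 4 or 5. With arrays centred on their median the aerocyte list had 1.

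Vwf, the clotting factor stored in endothelium of larger vessels, read 10.74, 11.67, 12.40, 12.66 and 12.66 in septa, against 14.50, 15.61, 15.28, 14.54 and 14.89 in vessel. The groups did not overlap, and the difference was -2.94 ± 0.50 (SE, n = 5 each; limma adjusted p = 0.0137). The serine protease Prss23 was at -2.20 ± 0.47 and carboxypeptidase E, Cpe, at -3.79 ± 0.80 (SE, n = 5 each; limma adjusted p = 0.0352 and 0.0332). These were the 3 lower genes of a venous list of 14 tested, of which 1 passed without septa replicate 1, 2, 4 or 5 and 2 without vessel replicate 2, 3 or 4. The 1 higher gene was Slco2a1, a prostaglandin transporter, at 12.52, 12.21, 11.65, 13.19 and 11.90 in septa, against 8.32, 3.78, 8.70, 10.49 and 3.75 in vessel. Its vessel arrays ran over more than 6 units, and the difference was 5.28 ± 1.22 (SE, n = 5 each; limma adjusted p = 0.0425), with that sign on 3 of 4 probes. It passed in 3 of 10 fits with 1 array left out (limma adjusted p up to 0.115), and in none of those without a septa array. Slco2a1 and Calcrl were the 2 calls of 17 tested vasoactive genes, a count that was 0 without septa replicate 1, 2, 4 or 5. The arterial connexin Gja5 read 12.53 ± 0.74 in septa and 12.56 ± 1.39 in vessel (SD, n = 5 each), and the arterial kinase Bmx 9.45 ± 1.16 and 11.12 ± 0.76; neither passed. Gng11 was the 1 call of 10 tested lymphatic genes, at 3.02 ± 0.63 (SE, n = 5 each; limma adjusted p = 0.0318). Gng11 passed in 5 of 10 fits with 1 array left out (limma adjusted p up to 0.0861). Prox1, the factor that defines lymphatic endothelium, was at -0.49 (limma adjusted p = 0.801).

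**Figure D4:**
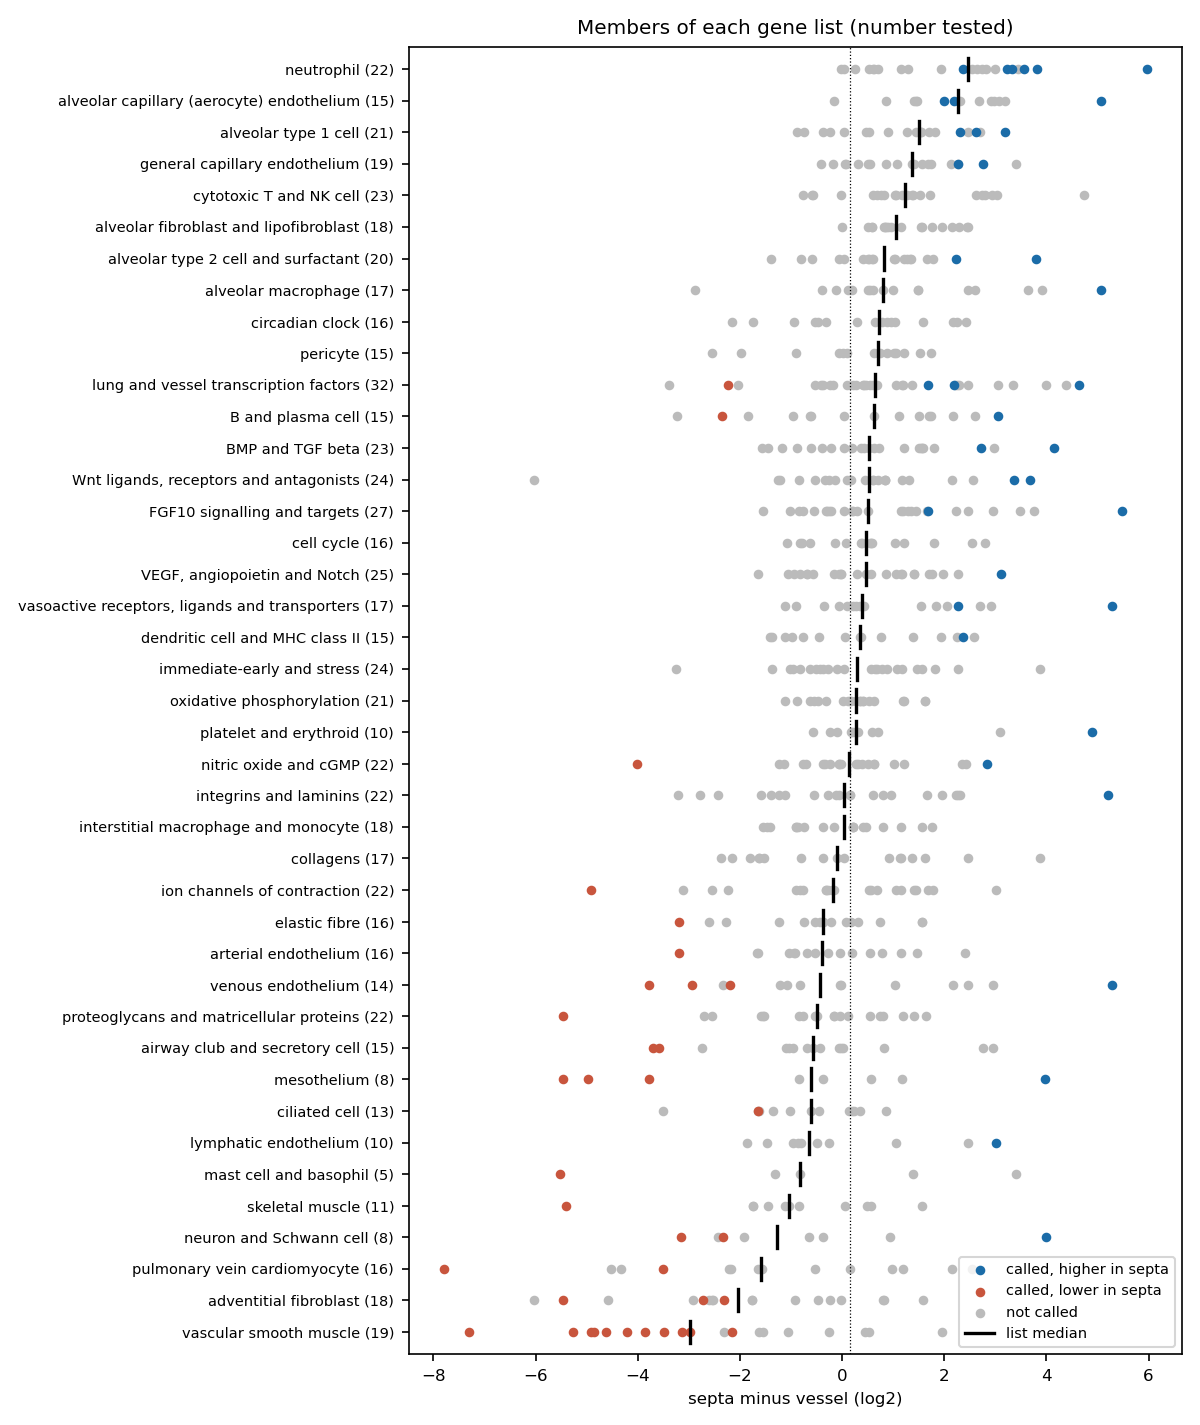
Difference of septa minus vessel on the log2 scale (x axis) for the tested members of 41 gene lists (rows, ordered by median, number tested in parentheses); blue and red points passed the limma test, grey points did not, black bars are list medians and the dotted line is the median of all genes tested, 0.15. Vascular smooth muscle lies lowest, with a median of -2.98 and 11 red points, and neutrophil genes lie highest, with a median of 2.46 and 6 blue points.

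Of 21 tested type 1 cell genes, 3 were higher in septa (2.0% of all genes tested) and 0 lower, with a median of 1.50. In 9 of them the groups did not overlap (3.77% of all genes tested). Hopx, a homeodomain protein of type 1 cells, read 13.17, 12.86, 13.08, 13.43 and 12.78 in septa, against 10.68, 9.74, 10.83, 10.99 and 10.01 in vessel. The difference was 2.62 ± 0.42 with no overlap (SE, n = 5 each; limma adjusted p = 0.0106). The anchoring protein Akap5 was at 2.31 ± 0.54 (SE, n = 5 each; limma adjusted p = 0.0452). The list had 1 call without any 1 septa array and 2 without any 1 vessel array.

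Type 2 cell and surfactant genes gave 2 calls among 20 tested, both higher in septa (2.0% of all genes tested), with a median of 0.81. Lamp3, of lamellar bodies, was at 2.24 ± 0.52 and Lpcat1, which makes surfactant lipid, at 3.80 ± 0.69 (SE, n = 5 each; limma adjusted p = 0.0425 and 0.018). There were 0 calls without septa replicate 2 or 4, 2 without vessel replicate 2, and 1 without any other array. Epithelial RNA was plain in the vessel cuts as well. Surfactant protein C, Sftpc, read 15.93 ± 0.05 in septa and 15.90 ± 0.14 in vessel, and the type 1 cell receptor Ager 15.80 ± 0.14 and 15.32 ± 0.24 (SD, n = 5 each). Secretoglobin Scgb1a1, of airway club cells, read 15.54 ± 0.29 in septa and 15.98 ± 0.01 in vessel (SD, n = 5 each). The highest value deposited was 15.98, so differences of these 3 genes have no exact size.

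Of 15 tested club and secretory genes of the airway, 2 were lower in septa (0.989% of all genes tested) and 0 higher, with a median of -0.57. Scgb3a2, a club cell secretoglobin, read 12.16, 11.76, 8.55, 10.93 and 9.66 in septa, against 15.52, 12.70, 15.19, 13.48 and 14.11 in vessel. The difference was -3.59 ± 0.79, and replicate 2 of vessel came within 1 unit of the highest septa array (SE, n = 5 each; limma adjusted p = 0.0383). Cyp2f2, a cytochrome of club cells, was at -3.70 ± 0.68 (SE, n = 5 each; limma adjusted p = 0.0199). Neither passed without septa replicate 4 or without septa replicate 5. Cdhr3, a cadherin of ciliated cells, was the 1 call of 13 tested ciliated genes, at -1.65 ± 0.39 (SE, n = 5 each; limma adjusted p = 0.0473), and it missed the threshold with any 1 array left out. Foxj1, the factor that defines ciliated cells, read 4.87, 4.78, 4.60, 3.94 and 4.07 in septa, against 3.98, 4.08, 8.80, 9.41 and 3.80 in vessel, so it was above the dim range on vessel replicates 3 and 4 alone.

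Of 22 tested neutrophil genes, 6 were higher in septa (2.0% of all genes tested), 0 lower, 21 had a positive difference, and the median was 2.46. Clec4d, a C-type lectin of myeloid cells, read 10.94, 10.77, 11.95, 11.49 and 13.04 in septa, against 7.65, 5.00, 5.95, 5.35 and 4.41 in vessel. The groups lay 3 units apart at their closest. The difference was 5.97 ± 0.67 (SE, n = 5 each; limma adjusted p = 0.00207). Clec4e, a related lectin, was at 3.23 ± 0.72, and the granule proteases Mmp8 and Mmp9 at 2.37 ± 0.53 and 3.82 ± 0.70 (SE, n = 5 each; limma adjusted p from 0.0199 to 0.0384). The formyl peptide receptors Fpr1 and Fpr2 were at 3.32 ± 0.70 and 3.57 ± 0.80 (SE, n = 5 each; limma adjusted p = 0.0331 and 0.04). S100a8, the most abundant granulocyte protein, read 11.85, 14.04, 15.33, 14.85 and 15.69 in septa, against 12.13, 11.60, 11.76, 14.73 and 7.85 in vessel, and did not pass (limma adjusted p = 0.19). Septa replicate 5 had the highest mean level of the list, 11.08, and the septa range of 8.75 to 11.08 overlapped the vessel range of 7.19 to 9.25. The count of 6 fell to 1 without septa replicate 2, to 2 without septa replicate 3 or 5 or vessel replicate 3 or 5, and to 3 without septa replicate 4.

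Other immune lists gave few calls, among 10 tested platelet and erythroid genes, 5 of mast cells and basophils, 15 of B and plasma cells and 15 of dendritic cells and MHC class II. Ppbp, the chemokine of platelet granules, read 9.11, 10.74, 10.38, 11.23 and 11.24 in septa, against 5.14, 4.65, 4.49, 7.30 and 6.62 in vessel, a difference of 4.90 ± 0.67 with no overlap (SE, n = 5 each; limma adjusted p = 0.00496). Mcpt4, a chymase of connective tissue mast cells, read 4.71, 4.52, 5.17, 4.91 and 3.83 in septa, against 12.81, 8.92, 5.44, 11.40 and 12.18 in vessel. It was dim on every septa array and near that level on vessel replicate 3. The vessel mean was at least 28.5-fold above the level of percentile 40, the bound used where a gene is dim on all arrays of a group (-5.52 ± 1.19 on the log2 scale, SE, n = 5 each; limma adjusted p = 0.0352). The chemokine receptor Cxcr5 of B cells was at 3.06 ± 0.65, and Mzb1 of plasma cells at -2.36 ± 0.54 (SE, n = 5 each; limma adjusted p = 0.034 and 0.0422). The B and plasma cell list thus gave 1 higher and 1 lower gene. Zbtb46, a factor of dendritic cells and endothelium, was at 2.36 ± 0.49 (SE, n = 5 each; limma adjusted p = 0.0318). With 1 array left out, Mcpt4, Cxcr5, Mzb1 and Zbtb46 passed in 3, 3, 2 and 4 of 10 fits, and Ppbp in all 10. Cytotoxic T and NK cell genes had no call among 23 tested (limma) with a median of 1.24. For that list the mean level was 7.92 to 9.22 in septa and 6.84 to 7.25 in vessel. Interstitial macrophage genes had no call among 18 tested (limma) with a median of 0.03.

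Among the 10 largest increases in septa were several genes that the vessel arrays hardly showed. Bex2, a small brain-expressed X-linked protein, read 13.79, 13.30, 11.69, 12.77 and 12.46 in septa, against 10.68, 5.89, 3.94, 3.87 and 5.79 in vessel, where replicate 1 was far above the rest. Spp1, the secreted protein osteopontin, read 10.36, 12.08, 11.35, 11.85 and 11.43 in septa, against 6.94, 3.98, 3.79, 6.55 and 7.43 in vessel, a difference of 5.67 ± 0.77 (SE, n = 5 each; limma adjusted p = 0.00489). Fam111a, a protease of DNA replication, read 9.31, 10.53, 9.85, 10.04 and 10.87 in septa, against 4.61, 4.50, 5.01, 4.95 and 4.01 in vessel, all of them dim. Septa were at least 27.9-fold above percentile 40 for this gene (limma adjusted p = 0.000277). Slfn1, a regulator of T cell growth, was likewise dim on all vessel arrays, and septa were at least 35.2-fold above percentile 40 (limma adjusted p = 0.00142). Csf1, the growth factor of macrophages, read 12.01, 10.12, 9.14, 10.00 and 10.21 in septa, against 3.99, 4.52, 4.14, 4.02 and 8.33 in vessel, where only replicate 5 was above the dim range. Its difference was 5.29 ± 0.87 (SE, n = 5 each; limma adjusted p = 0.0114), and Rasgrp2, which activates Rap1 in platelets, was at 5.33 ± 0.65 (SE, n = 5 each; limma adjusted p = 0.0029). For Arhgap12 at 5.96 ± 1.06, only 1 of 4 probes ran in that direction, and for Alg2 at 5.47 ± 0.72 and Dusp4 at 5.48 ± 0.65 only 1 of 2 (SE, n = 5 each; limma adjusted p from 0.00251 to 0.0171). In all, 146 of the 339 genes higher in septa lay under percentile 40 on 3 or more vessel arrays, and 31 on all 5, against 1558 and 38 of all 16992 genes tested. Of the 168 lower genes, 29 were that dim on 3 or more septa arrays and 4 on all, against 1303 and 21 of all tested. A gene dim on every array of 1 compartment could enter the test only by lying above that level on all arrays of the other, so these counts are partly set by the filter.

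Fgf10, named in the title of the series, encodes a fibroblast growth factor secreted by mesenchyme, which acts on epithelial cells carrying the receptor Fgfr2b. It read 7.65, 7.16, 7.54, 7.49 and 8.69 in septa, against 5.02, 4.26, 8.54, 4.52 and 3.87 in vessel. The septa arrays were alike, 4 vessel arrays were dim, and vessel replicate 3 lay among the septa arrays. The difference of 2.46 ± 0.82 did not pass (SE, n = 5 each; limma adjusted p = 0.115), and 2 of 3 probes had that sign. Fgfr2, its receptor, was at 1.44 ± 0.69, and the ETS factors Etv4 and Etv5, induced by FGF signals, at -0.77 ± 0.68 and 1.67 ± 0.52 (SE, n = 5 each; limma adjusted p = 0.247, 0.539 and 0.0977). Of the feedback inhibitors, Dusp6 was at 1.35 ± 0.40, Spry2 at 2.23 ± 1.13 and Spry4 at -0.29 ± 0.84 (SE, n = 5 each; limma adjusted p = 0.0849, 0.271 and 0.874). Dusp6 did not overlap between the groups, though it did not pass. Of 27 tested genes of FGF10 signalling and its targets, Dusp4, another phosphatase that dampens ERK, and Tbx4 were higher and 0 lower. The median was 0.51, and 2.0% of all genes tested were called higher. The count was 1 without any 1 septa array or vessel replicate 2 or 5, and 3 without vessel replicate 1 or 3. Tbx4, a T-box factor of lung mesenchyme, read 11.04, 11.12, 11.32, 10.69 and 10.47 in septa, against 9.44, 8.96, 9.56, 9.11 and 9.12 in vessel, at 1.69 ± 0.39 without overlap (SE, n = 5 each; limma adjusted p = 0.0421).

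Nos2, the inducible nitric oxide synthase, read 8.91 ± 0.55 in septa and 10.15 ± 0.63 in vessel (SD, n = 5 each) and did not pass, at -1.24 ± 0.47 (SE; limma adjusted p = 0.158). In the nitric oxide and cGMP list of 22 tested genes, Ddah1, which clears an inhibitor of nitric oxide synthases, was higher at 2.84 ± 0.58, and Mrvi1, a target of the cGMP kinase in smooth muscle, lower at -4.01 ± 0.64 (SE, n = 5 each; limma adjusted p = 0.03 and 0.0106). With any 1 septa array left out, 0 genes of that list were higher (limma). The ligand Bmp6 was at 2.72 ± 0.57 and Bmper, which binds BMPs outside the cell, at 4.15 ± 0.81, the 2 calls of 23 tested BMP and TGF beta genes (SE, n = 5 each; limma adjusted p = 0.0329 and 0.0257). The count was 0 without septa replicate 1, 2, 4 or 5 and 1 without septa replicate 3 or vessel replicate 3 or 5. The ligand Wnt7a was at 3.36 ± 0.78 and the receptor Fzd7 at 3.67 ± 0.59, 2 of 24 tested Wnt genes (SE, n = 5 each; limma adjusted p = 0.0448 and 0.0106), and 1 was higher without any 1 septa array or vessel replicate 4 or 5. Angpt1, the ligand of the endothelial receptor Tek, was at 3.11 ± 0.59, the 1 call of 25 VEGF, angiopoietin and Notch genes (SE, n = 5 each; limma adjusted p = 0.0224). Of all genes tested 2.98% were called in either direction, so 1 call in such a list lies near that share.

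Of 32 tested lung and vessel transcription factors, Tbx2, Tbx4 and Meox1 were higher in septa and Gata6 lower, with a median of 0.64. Of all genes tested, 2.0% were called higher and 0.989% lower. Meox1, a homeobox factor of mesoderm, read 10.84, 10.94, 10.97, 9.89 and 8.14 in septa, against 3.82, 4.92, 4.37, 5.26 and 9.24 in vessel, where replicate 5 was above the lowest septa array. The difference was 4.63 ± 0.98 (SE, n = 5 each; limma adjusted p = 0.0338). Gata6, a zinc finger factor of smooth muscle and lung epithelium, was at -2.24 ± 0.52 (SE, n = 5 each; limma adjusted p = 0.0429). The count of higher factors was 0 without septa replicate 1, 2, 3 or 4, 1 without septa replicate 5 or vessel replicate 2, 3 or 4, and 6 without vessel replicate 1. Gata6 passed in 1 of 10 such fits. Of 8 tested mesothelium genes Upk1b was higher, at 3.97 ± 0.67, and Aldh1a2, which makes retinoic acid, lower, beside Cpe and Dcn (SE, n = 5 each; limma adjusted p = 0.0126 and 0.00341). Aldh1a2 was dim on all septa arrays, and vessel was at least 15.7-fold above percentile 40. Of 8 tested neuron and Schwann cell genes, Snap25, of synaptic vesicle fusion, and Uchl1, a neuronal ubiquitin hydrolase, were lower, at -2.34 ± 0.48 and -3.16 ± 0.58, and the myelin gene Mbp higher, at 3.98 ± 0.91 (SE, n = 5 each; limma adjusted p from 0.0198 to 0.0421). Only 1 of 3 Mbp probes and 1 of 2 Uchl1 probes ran in those directions. Without septa replicate 1, 2, 3 or 4 or vessel replicate 3, 1 gene of this list was lower and 0 higher, and without septa replicate 5 none passed (0 of 8). Circadian clock, immediate-early, cell cycle and oxidative phosphorylation genes gave no call among 16, 24, 16 and 21 tested (limma), with medians of 0.72, 0.30, 0.47 and 0.27. The groups did not overlap, with septa higher, in 0, 6, 0 and 1 of these genes, against 3.77% of all genes tested.

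The same comparison exists in the 6 other conditions, on arrays that did not enter the fit behind the calls. Those arrays did enter the choice of each gene's brightest probe, and their vessel means were set beside the called genes above. Genes lower in septa in wild-type room air had the same sign in the 8-month room air controls in 166 of 168 cases (98.8%), against 67.9% of all genes tested. They did so in all 6 other conditions in 124 cases (73.8%), against 16.0% of all tested. Genes higher in septa had the same sign in the 8-month room air controls in 296 of 339 cases (87.3%) and in all 6 conditions in 125 (36.9%). Fewest kept the sign in knock-down smoke, 139 of the lower (82.7%) and 190 of the higher genes (56.0%), against 46.3% of all tested. That condition held 3 arrays of low correlation (a median r under 0.6 with the other arrays of their compartment). The median difference of the lower genes was -2.59 in wild-type room air and -1.39 as the mean of the other conditions. For the higher genes it was 3.47 and 1.00. The genes were picked by the first of these values, which favours a larger value there, so the medians are a description.

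**Figure D5:**
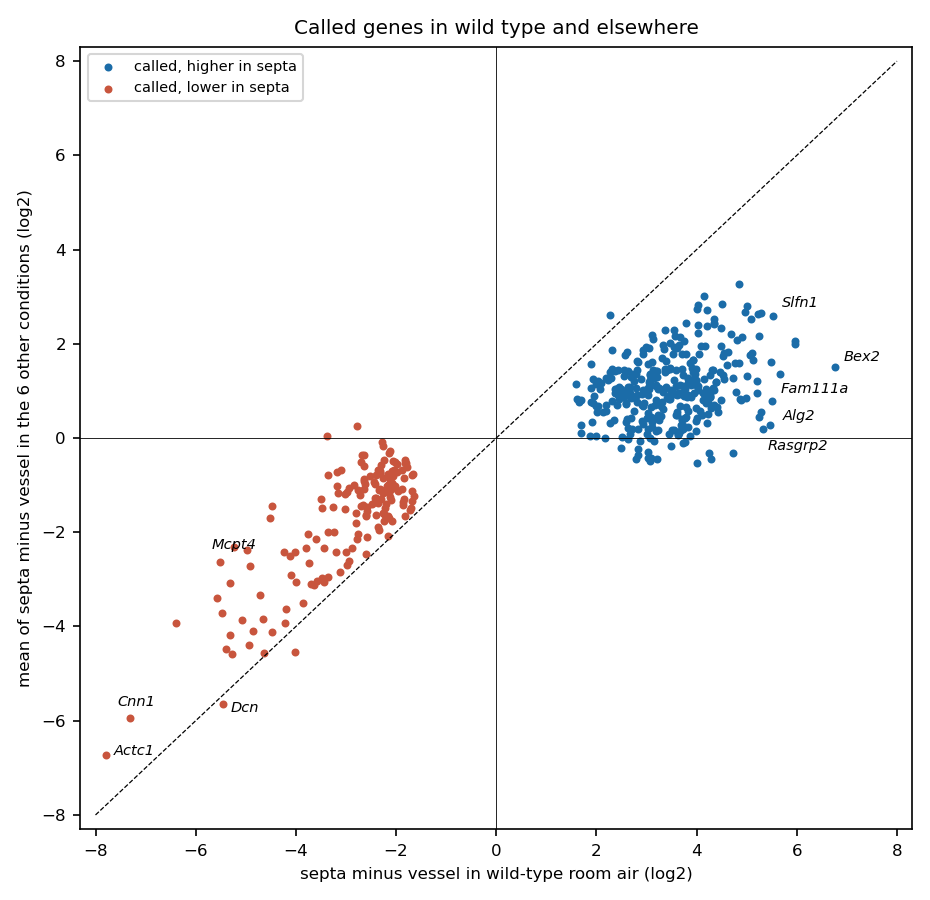
Difference of septa minus vessel in wild-type room air (x axis) against the mean of the same difference in the 6 other conditions (y axis), both on the log2 scale, for the 339 genes called higher in septa (blue) and the 168 called lower (red); the dashed line marks equal values. Of the lower genes Dcn lies close to the line and Cnn1 and Actc1 somewhat above it, and most higher genes lie well under it, with Rasgrp2 and Alg2 near 0 on the y axis.

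Of genes named above, Cnn1, Actc1 and Dcn had a negative difference in each of the 6 other conditions. Cnn1 was at -7.31 in wild-type room air and at a mean of -5.95 in the other conditions, Actc1 at -7.80 and -6.72, and Dcn at -5.46 and -5.64. Limma found no difference past the threshold for any of the 3 (adjusted p = 0.447, 0.689 and 0.974). Car4 was at 5.07 in wild-type room air and 1.77 elsewhere, and Clec4d at 5.97 and 1.99, again with no call (limma adjusted p = 0.11 and 0.125).

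The difference itself departed from the mean of the other conditions in 39 of 23877 genes (0.163%; limma, 14-group fit), 24 in the positive and 15 in the negative direction. Rasgrp2 had the smallest p. It was at 5.33 in wild-type room air, against 0.90, 0.51, -1.77, 1.59, -0.44 and 0.32 in the other conditions (wild-type smoke, knock-down room air, knock-down smoke, then 8-month room air, smoke and overexpression). The departure was 5.14 ± 0.85 (SE; limma adjusted p = 0.00222). Its mean in wild-type room air was 11.29 in septa and 5.96 in vessel, while the other groups ran from 8.40 to 11.13 in septa and from 8.62 to 10.70 in vessel. Plekhd1 departed by 4.79 ± 0.90, Csf1 by 4.74 ± 0.92, Tmem164 by 3.46 ± 0.70 and Sod2, the mitochondrial superoxide dismutase, by 3.89 ± 0.79 (SE; limma adjusted p from 0.0162 to 0.021). Only 1 of 2 Plekhd1 probes ran in that direction. In all 5 of these genes the vessel mean of wild-type room air was below those of the 6 other vessel groups, for Sod2 at 6.63 against 9.98 to 10.72.

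The values in the negative direction rest on septa arrays that were mostly dim, so their exact sizes are not known. They were Gldn at -2.79 ± 0.53, Il1rapl2 at -2.24 ± 0.51 and the odorant receptors Olfr49 at -2.71 ± 0.54, Olfr891 at -2.79 ± 0.62 and Olfr378 at -2.60 ± 0.59 (SE; limma adjusted p from 0.0162 to 0.037). All 5 had a higher vessel mean in wild-type room air than in the 6 other vessel groups, whose highest mean was 5.08, itself dim. Gldn, Olfr891 and Olfr378 were dim on all 5 septa arrays. Gldn had group means of 3.92 to 4.66 in all groups but wild-type room air vessel, where it was 6.88, and its vessel arrays read 5.63, 8.90, 8.18, 7.84 and 3.82. The count of departures was 307 without the low-correlation arrays. It was 15, 16, 6, 16 and 7 without septa replicate 1, 2, 3, 4 or 5, and 202, 19, 61 and 115 without vessel replicate 1, 2, 4 or 5.

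Against the 8-month room air controls alone, limma found no departure among 23877 genes (0.0%), with 1341 at an unadjusted p under 0.05. Without vessel replicate 1 or 3 the count was 2, and without vessel replicate 2 or 5 it was 1. Smallest by p, and not passed, were Grap, an adaptor of lymphocyte signalling, at 3.91 ± 0.86, Pde4d, a phosphodiesterase of cAMP, at 5.19 ± 1.21, Mcpt4 at -5.32 ± 1.25, Nit2, dim on all vessel arrays, at 3.87 ± 0.93 and Plekhd1 at 4.88 ± 1.17 (SE; limma adjusted p = 0.324 each). For Mcpt4 the difference of septa minus vessel was -5.52 in wild-type room air and -0.21 in those controls.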

How the data were processed

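RNA of laser-microdissected mouse lung was measured on 1-colour Agilent arrays of 62976 features. The deposited values are log2 intensities, 3.27 to 15.98. Arrays differed by at most 0.00352 at any percentile, so the authors had already quantile-normalised them. For background correction the sources used here give no method. The submitters' processing notes name limma without a version.

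Features were named through RefSeq accessions or symbols (43941 with 1 gene, 19035 with none, 24306 genes). The 10-array fit used lmFit and eBayes of limma 3.58.1 in R 4.3.3, with Benjamini-Hochberg adjustment and a threshold of 0.05. It left out 7308 dim genes and 6 with missing values. Departures from other conditions came from a fit of all 14 groups, over genes above percentile 40 on 4 or more of 68 arrays. Replicate numbers were not a term.

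The genes named are the 10 largest changes in each direction, list members past the threshold, Fgf10 and 7 related genes, and the 5 departures of smallest p in each direction. Riken, LOC and predicted genes were left out. One called gene of the type 1 cell list is not reported here by name. List members named that did not pass, and Xist, were chosen after their values were seen. Members and lists were chosen with earlier results of these data known.

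On simulated data for 10 arrays, 50 genes per size were changed among 16992 genes. Changes of 2, 3, 4 and 5 on the log2 scale were recovered in 8%, 28%, 48% and 72% of these. Of the unchanged genes, 7 were called. Recovery in the filtered fit of the measured arrays was not tested.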

Additional observations from a re-analysis of the deposited data

Results flagged for a closer look

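Single arrays lay far from the other 4 of their group in 21 of 216 gene and group combinations looked at, 8 in septa and 13 in vessel, where chance flags about 1 in 20. Among septa arrays the isolated high values were Ldb3 at 5.58 on replicate 4, Prss23 at 11.92 and Tnnt2 at 6.81 on replicate 3, Arhgap12 at 13.34, Slfn1 at 12.46 and Grap at 10.54 on replicate 1, and Olfr49 at 6.16 on replicate 2. Plekhd1 was low at 8.31 on septa replicate 5. Among vessel arrays, replicate 1 was high for Arhgap12 at 9.79, for Plekhd1 at 9.03 and for Grap at 7.94. Vessel replicate 5 was high for Csf1 at 8.33 and Meox1 at 9.24, and low for Snap25 at 14.34 and Il1rapl2 at 4.09. Vessel replicate 3 was high for Fgf10 at 8.54, with the next array at 5.02, for Cxcr5 at 6.91 and for Pde4d at 7.39. Vessel replicate 2 was low for Actc1 at 13.69 and Fgfr2 at 5.00, and vessel replicate 4 for Sftpc at 15.65.

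In 12 named genes the difference of septa minus vessel departed in wild-type room air from its mean in the 6 other conditions (limma, 14-group fit). The departures were positive for Fam111a at 4.73, Alg2 at 5.18, Rasgrp2 at 5.14, Csf1 at 4.74, Plekhd1 at 4.79, Tmem164 at 3.46 and Sod2 at 3.89. They were negative for Gldn at -2.79, Olfr49 at -2.71, Olfr891 at -2.79, Olfr378 at -2.60 and Il1rapl2 at -2.24.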

How the results depend on the processing

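The count of 507 genes between septa and vessel was 1191 in the fit of all 14 groups (411 shared with the 507), 3722 in that fit without the 3 low-correlation arrays (506 shared) and 62 with the replicate number as a replicate block (all 62 shared). It ran from 139 to 717 with 1 array left out. Without a filter, with other probe rules, centring, array weights or Xist as a covariate (added after seeing the data), it lay between 429 and 717. The mean of all probes gave 509 genes, of which 302 were shared with the 507. Another probe above percentile 40 on 5 or more arrays existed for 181 of the higher and 67 of the lower genes. All such probes ran in the gene's direction in 114 and 54 of these, against 3718 of 6907 over all genes tested. Deviations of same-numbered arrays correlated at -0.12 to 0.07, and those of arrays with unlike numbers at -0.13 to 0.14. With 5 arrays per group, these values cannot show whether a septa and a vessel array share an animal. Xist was high on septa replicate 2 but not on vessel replicate 2, and on vessel replicate 5 but not on septa replicate 5. Whether arrays of the other numbers share an animal is not known. The 39 departures from other conditions were 23 with array weights, 307 without low-correlation arrays, 83 with the replicate block and 6 to 202 with 1 array left out. Against the 8-month room air controls the count of 0 became 2 with array weights and 1 without low-correlation arrays, and ran from 0 to 2 with 1 array left out. The causes were not tested.

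Of 77 called genes taken from the largest changes and the gene lists, 36 passed in all 10 fits with 1 array left out, 34 passed in 5 or fewer, and 23 passed with the block. None of these changed sign in the fits run (0 of 77). Genes not called did. Spry4, at -0.29, ran from -0.75 to 0.22 with 1 array left out, and was positive without septa replicate 1 (0.14) or vessel replicate 1 (0.22) or 2 (0.12). Sftpc, too near the top of the scale for its sign to be read, was at 0.03 and at -0.12 with centring, and ran from -0.032 without vessel replicate 4 to 0.0495. Gja5, at -0.03, ran from -0.48 to 0.34, and was positive without septa replicate 2 or 3 or vessel replicate 1, 3 or 4.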
